A study of Mus musculus with 6 samples.

Results

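The genes described here encode the cyclin-dependent-kinase-like kinase Cdkl2 and the neuronal kinase Cdk5 with its activator Cdk5r1. They also encode the MAP kinases Mapk3, Mapk8, Mapk9 and Mapk10 and the MAP kinase kinases Map2k1 and Map2k2. Every probe set whose platform annotation names only one of these 9 genes, by its current or an older symbol, was taken. This gave 24 of the 36701 probe sets that are not controls, 11 on array design A, 6 on design B and 7 on design C, for 8 of the 15950 genes that have such a probe set. Mapk3, which encodes ERK1, was not analysed here, so the ERK branch is represented by its upstream kinases Map2k1 and Map2k2.

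RNA came from tissue centred on the anterior interpositus, the cerebellar nucleus through which the conditioned eyeblink is driven, of male C57BL/6 mice aged 11 to 18 weeks. The paired group heard a 352 ms tone with a 100 ms shock near the eye that began 252 ms after the tone's start and ended with it. The unpaired group received the same tone and shock apart from each other in a pseudorandomized order. Both groups had wires implanted in the left eyelid, 3 days of recovery and 7 days of training, and the nuclei were taken within 10 to 30 min. From 10 to 15 nuclei on the side of the wired eye were pooled per group, and each pool was measured on designs A, B and C, which carry different probe sets, with 1 array per group and design. Neither group therefore has a replicate, no p-value can be given, and the effect of training cannot be told apart from a difference between pools. In pooled tissue, fewer cells of a type and less RNA per cell cannot be told apart either.

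Cdkl2 carries the KKIAMRE motif from which its older name comes, belongs to a family related to both cyclin-dependent and MAP kinases, and was tied to eyeblink conditioning in earlier work. Cdk5 is active mainly in neurons, where p35, the product of Cdk5r1, binds and activates it, and it phosphorylates proteins of the cytoskeleton and of the synapse. MAP kinases act in relays: Map2k1 and Map2k2 (MEK1 and MEK2) switch on the ERKs, while Mapk8, Mapk9 and Mapk10 (JNK1, JNK2 and JNK3) are switched on by other upstream kinases, and JNK3 is found mostly in the nervous system. Such kinases are regulated chiefly by phosphorylation and by partner proteins, which these arrays do not measure.

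Values are log2 signals as deposited. A log2 ratio is paired over unpaired, after the paired array of each design was shifted by at most 0.010 so that the bright probe sets had a median ratio of 0. A probe set was called measured when its mean signal reached the median of its design, which 16 of the 24 did, for 7 genes. Percentiles give the place of a signal among all probe sets of its array. Signals of different probe sets depend on the probes, so the genes were not put in an order of level.

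Cdkl2 was not measured above the signal filter on any of its 3 probe sets, and its signal hardly differed between the pools. On design A, probe set 160623_at had a log2 signal of 4.59 in the paired pool, at the 46.0 percentile, against 4.51 in the unpaired pool, at the 45.4 percentile, a log2 ratio of 0.087. On design C, 139499_at had 2.53 in the paired pool (36.1 percentile) against 2.38 in the unpaired pool (31.0 percentile), a log2 ratio of 0.16. On design B, 111146_at lay near the bottom of both arrays, with 2.02 in the paired pool (0.49 percentile) and 2.06 in the unpaired pool (0.60 percentile), a log2 ratio of -0.028. The 3 log2 ratios averaged 0.072 ± 0.093 (SD over probe sets of these pools, n = 3). All lay inside the central 95% of the dim probe sets of their designs, which ran from -0.37 to 0.46 on design A, from -0.43 to 0.46 on B and from -0.36 to 0.38 on C. These values do not show that Cdkl2 was equal in the pools, since neither had a replicate.

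**Figure D1:**
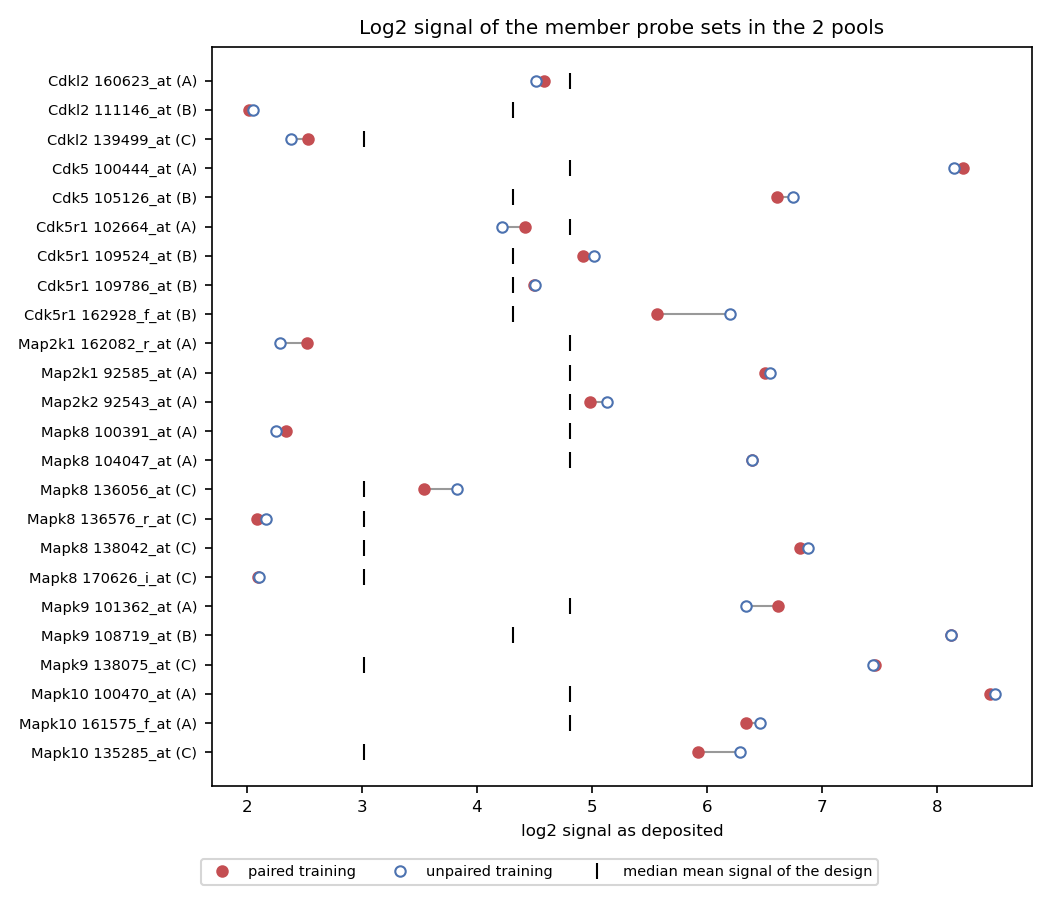
Log2 signal as deposited (x axis) of each of the 24 probe sets (rows, with the design in parentheses) in the pool of paired training (filled red) and of unpaired training (open blue); the black tick is the median mean signal of the design, used as the filter. All 3 Cdkl2 probe sets lie left of their tick, and the widest gap between pools is that of Cdk5r1 162928_f_at, at 5.57 in the paired and 6.20 in the unpaired pool.

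Cdk5 was bright in both pools, and its probe sets pointed in opposite directions. On design A, 100444_at had a log2 signal of 8.22 in the paired pool (93.7 percentile) against 8.14 in the unpaired pool (93.0 percentile), a log2 ratio of 0.091. On design B, 105126_at had 6.61 in the paired pool (88.6 percentile) against 6.75 in the unpaired pool (90.0 percentile), a log2 ratio of -0.13. The mean was -0.021 ± 0.16 (SD over 2 probe sets), so no direction can be read for the kinase itself, and the mean was just above 0 under quantile and loess scaling (0.0081 and 0.0023).

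Cdk5r1, the p35 activator, held the only probe set among the members past 1.5-fold. On design B, 162928_f_at had a log2 signal of 5.57 in the paired pool (73.7 percentile) against 6.20 in the unpaired pool (83.2 percentile), a log2 ratio of -0.62, or 1.54-fold lower in the paired pool. It was thus 1 of 16 measured member probe sets past 1.5-fold, all lower, where 0.681% of the 18351 measured probe sets lay past 1.5-fold in either direction and 0.332% were lower by that much. Past 2-fold lay 0 member probe sets, and 0.00545% of all measured ones were lower by that much. A lesser threshold was an unpaired signal at least 25% above the paired one. Past it 2 member probe sets were lower, 162928_f_at and a probe set of Mapk10 described below, where 5.07% of all were. By absolute log2 ratio 162928_f_at ranked 38 among the 6206 measured probe sets of design B. The letter f in its name marks probes that match a family of sequences, and 0.927% of the 1510 measured probe sets with that letter lay past 1.5-fold, against 0.521% of the 14202 without any letter.

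The other Cdk5r1 probe sets did not show a difference of that size. On the same array pair, 109524_at had 4.92 in the paired pool against 5.02 in the unpaired pool, a log2 ratio of -0.090, and 109786_at had 4.49 against 4.51, a log2 ratio of -0.0082. On design A, 102664_at lay under the signal filter, with 4.42 in the paired pool against 4.22 in the unpaired pool, a log2 ratio of 0.21. The mean of the 3 measured probe sets was -0.24 ± 0.33 (SD), and without the suffixed probe set it was -0.049. The lower value of Cdk5r1 in the paired pool therefore rested on 1 probe set.

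The MEK kinases, which phosphorylate the ERKs, differed little. Map2k1 had a log2 signal of 6.51 in the paired pool (76.6 percentile) against 6.55 in the unpaired pool (77.0 percentile) on 92585_at, a log2 ratio of -0.033. Its other probe set, 162082_r_at, was near the bottom of design A, with 2.53 in the paired pool against 2.29 in the unpaired pool, a log2 ratio of 0.25. Map2k2 had only 92543_at, just above the signal filter of 4.81, with 4.98 in the paired pool (52.6 percentile) against 5.13 in the unpaired pool (55.3 percentile), a log2 ratio of -0.14. On design A 42.6% of the measured probe sets lay at least that far from 0.

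Of the JNK genes, Mapk10 (JNK3) had all 3 of its probe sets measured and a log2 ratio under 0 on each, one of them so near 0 that its sign turned under other scalings. On design A, 100470_at had 8.46 in the paired pool (94.8 percentile) against 8.50 in the unpaired pool (94.6 percentile), a log2 ratio of -0.033 that was 0.016 under loess and 0.024 under quantile scaling. Also there, 161575_f_at had 6.34 in the paired pool against 6.47 in the unpaired pool, a log2 ratio of -0.11. On design C, 135285_at had 5.92 in the paired pool (88.2 percentile) against 6.29 in the unpaired pool (91.1 percentile), a log2 ratio of -0.36. That ratio was the second largest among the measured members, and 6.64% of the measured probe sets of design C were at least as far from 0. The mean was -0.17 ± 0.17 (SD over 3 probe sets), and the brightest Mapk10 probe set gave the smallest difference.

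Mapk9 (JNK2) was higher in the paired pool on 1 of its 3 probe sets and nearly equal in the pools on the others. On design A, 101362_at had 6.62 in the paired pool (78.2 percentile) against 6.34 in the unpaired pool (74.2 percentile), a log2 ratio of 0.29, a distance that 12.5% of the measured probe sets there reached. On design B, 108719_at had 8.12 in both pools (98.0 percentile in each), a log2 ratio of 0.0082 that came from the centring and was -0.00017 without it. On design C, 138075_at had 7.46 in the paired pool against 7.44 in the unpaired pool, a log2 ratio of 0.026. The mean was 0.11 ± 0.16 (SD, 3 probe sets).

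Mapk8 (JNK1) had 6 probe sets, of which 3 were measured. The brightest, 138042_at on design C, had 6.81 in the paired pool (94.6 percentile) against 6.88 in the unpaired pool (94.9 percentile), a log2 ratio of -0.065, and 104047_at on design A had 6.40 against 6.39, a log2 ratio of 0.014. Also on design C, 136056_at had 3.54 in the paired pool (59.8 percentile) against 3.83 in the unpaired pool (64.5 percentile), a log2 ratio of -0.28. These averaged -0.11 ± 0.15 (SD, n = 3 probe sets). The 3 probe sets under the filter had log2 ratios of 0.10 on design A and -0.076 and -0.0065 on design C.

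**Figure D2:**
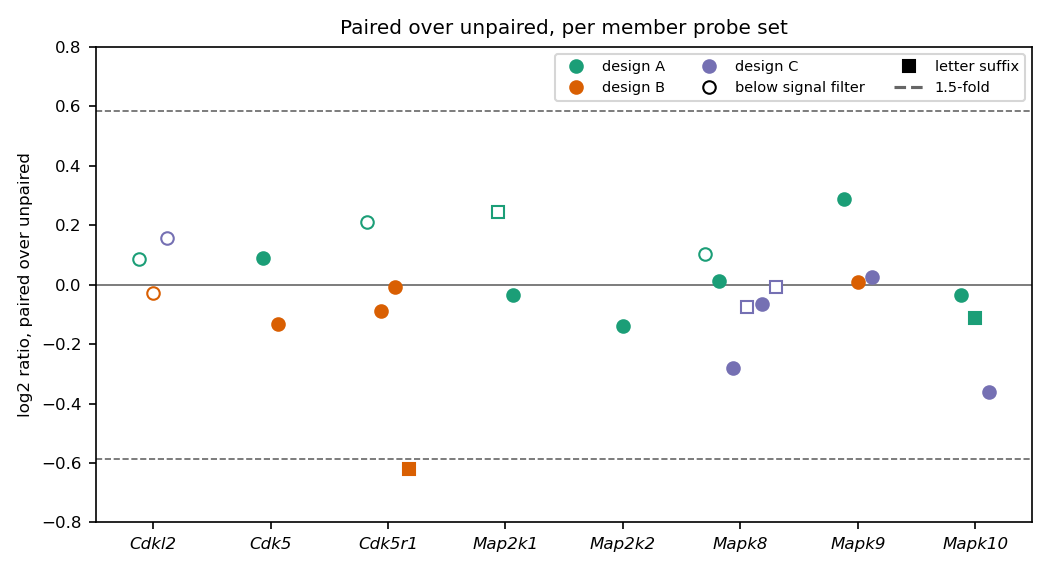
Log2 ratio, paired over unpaired, of each probe set (y axis) by gene (x axis); colour gives the design, open symbols lie below the signal filter, squares carry a letter suffix, and dashed lines mark 1.5-fold. Only Cdk5r1 162928_f_at, at -0.62, lies past a dashed line, and the Mapk10 points lie below 0 and the Mapk9 points above it, though the Mapk10 point at -0.033 and the Mapk9 point at 0.0082 changed side under other scalings.

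Over all 16 measured member probe sets the log2 ratios had an SD of 0.20, close to the 0.19 of all measured probe sets, and ran from -0.62 to 0.29. Their median was -0.049, with 11 lower and 5 higher, against a median of 0 over all measured probe sets. Within 0.1 of 0 lay 9 of the 16, and 43.7% of all measured probe sets. The 8 dim member probe sets had a median of 0.095, with 5 higher and 3 lower, where all dim probe sets had a median of 0.022 and 54.7% were higher. Taken by gene, 6 of 7 measured members were lower in the paired pool, where 51.0% of the 10578 measured genes were lower. The count includes Cdk5 at -0.021, which lay above 0 under quantile and loess scaling, leaving 5 of 7, and Mapk9 was higher in each of these. It also depends on the signal filter. Cdkl2, under the filter, is left out and had a mean of 0.072, and Map2k1 had a mean of 0.11 over all its probe sets.

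Agreement between probe sets of one gene was described in the same way. Of the 4 members with 3 measured probe sets, Cdk5r1, Mapk9 and Mapk10 had all of them in one direction and Mapk8 did not. Mapk10 left that group under loess and quantile scaling, and Mapk9 without scaling, each through 1 probe set near 0. Among all 740 genes with 3 measured probe sets, 26.8% had all in one direction. The gap between the highest and lowest log2 ratio of a gene was 0.61 for Cdk5r1, 0.33 for Mapk10, 0.29 for Mapk8, 0.28 for Mapk9 and 0.22 for Cdk5, against a median of 0.22 over the 3439 genes with several measured probe sets. Probe sets of a gene on one design share an array pair, so they are not replicates of the training.

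**Figure D3:**
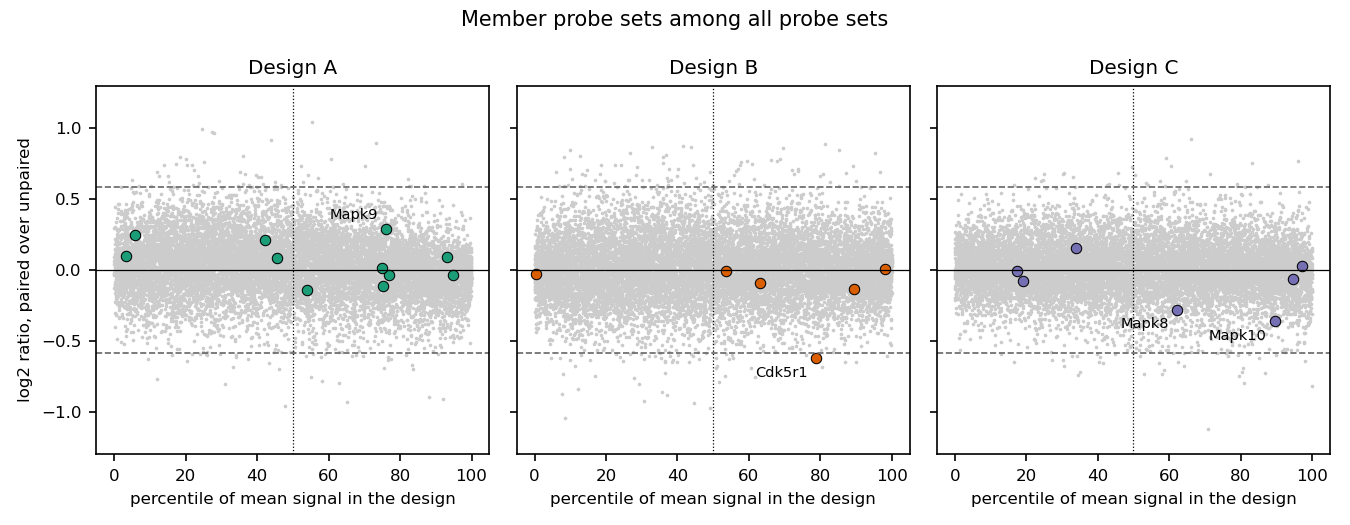
Log2 ratio, paired over unpaired (y axis), against the percentile of mean signal within the design (x axis) for every probe set (grey) and for the member probe sets (coloured), 1 panel per design; the dotted line is the signal filter and dashed lines mark 1.5-fold. The members lie within the grey band apart from Cdk5r1 162928_f_at on design B, which is at its lower edge, and the labelled points are those over 0.25 from 0 on the log2 scale.

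Other genes of these pathways were compared through 8 lists, which held 113 genes, 84 of them measured. By gene mean, 45 were higher and 39 lower in the paired pool, with a median log2 ratio of 0.016 against -0.0039 over all measured genes, and 0 lay past 1.5-fold, where 0.388% of all genes did. A measured probe set past 1.5-fold was found for 2 of the 84, Dusp8 and Map2, and for 1.09% of all genes. With 1 array per group no test stands behind these counts.

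Relatives and partners of Cdkl2 and Cdk5 were mixed. In the CDKL family, Cdkl1 had a log2 ratio of 0.082 and Cdkl3 a mean of 0.028 over 2 probe sets, or -0.041 over all 5. On the list of Cdk5 activators and regulators 12 genes were measured, 7 higher and 5 lower, with a median of 0.034. That list also holds related kinases that are not regulators of Cdk5. These were Cdk14 at -0.15, Cdk16 at -0.057, Cdk18 at -0.11 and Cdk17 at 0.11. The largest on the list were the Cdk5 activator binding proteins Cdk5rap1 at 0.35 and Cdk5rap3 at 0.16, and Cables1, which links Cdk5 to the Abl kinase, at 0.31. Of 15 measured Cdk5 substrates 7 were higher and 8 lower, with a median of -0.0032. Wasf1, a regulator of actin assembly, stood at -0.37, the synaptic vesicle protein gene Syn1 at -0.36 and the postsynaptic scaffold gene Dlg4 at 0.26. Each had 1 probe set, that of Wasf1 near the filter at the 53.5 percentile and that of Syn1 with the suffix f.

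Within the ERK pathway 5 of 11 measured genes were higher and 6 lower, with a median of -0.038. The small GTPase gene Nras had a mean of -0.22 over 2 probe sets and Rps6ka5, a kinase downstream of ERK and p38, -0.21 on its 1 measured probe set of 3. The kinase gene Braf, which activates the MEKs, had 0.21 on its 1 measured probe set of 8, while the mean over all 8 was 0.00012. Of 10 measured genes upstream of JNK or on its scaffolds 5 were higher and 5 lower, with a median of -0.023. Map3k7, the kinase TAK1, had -0.42 on its measured probe set and -0.18, 0.025 and -0.018 on 3 dim ones, while the JNK scaffold gene Spag9 had -0.15 and Map3k5, the kinase ASK1, 0.12. Their dim probe sets gave -0.22 for Spag9 and -0.15 for Map3k5.

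MAP kinase phosphatases and inhibitors held the widest values, with 6 of 13 measured genes higher, 7 lower and a median of -0.052. Dusp8, a phosphatase that acts on JNK and p38, was lower in the paired pool on both measured probe sets. On design B, 116939_at had 6.14 in the paired pool against 6.80 in the unpaired pool, a log2 ratio of -0.65, and on design A, 92362_at had 5.01 against 5.33, a log2 ratio of -0.31. A dim Dusp8 probe set gave -0.017. Dusp5, which acts on ERK in the nucleus, was higher with a log2 ratio of 0.48 on its single probe set, and Dusp10, which acts on JNK and p38, had 0.38 on its measured and -0.25 on its dim probe set.

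Among p38, ERK5 and atypical MAP kinases 7 of 11 measured genes were higher and 4 lower, with a median of 0.056. Mapk6, which encodes the atypical kinase ERK3, had 7.26 in the paired pool against 7.85 in the unpaired pool on design A, a log2 ratio of -0.57 that stayed just inside 1.5-fold, and -0.13 on a dim probe set of design C. Map2k5, the kinase upstream of ERK5, had a mean of 0.22, from 0.42 on a suffixed and 0.020 on another probe set, and -0.11 on a dim one. The p38 gene Mapk11 had 0.16 on its measured probe set, which carries a suffix, but -0.16, -0.59 and -0.094 on 3 dim ones of the same design, a mean of -0.17 over all 4. Of 10 measured targets of ERK and JNK 6 were higher and 4 lower, with a median of 0.015. The transcription factor gene Egr1 stood at 0.39, with 0.14 on a dim probe set, and Jund at -0.35, with 0.31 on a dim one. The dendritic gene Map2 stood at 0.33, the mean of 0.61 and 0.058, with -0.44 on a dim probe set.

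**Figure D4:**
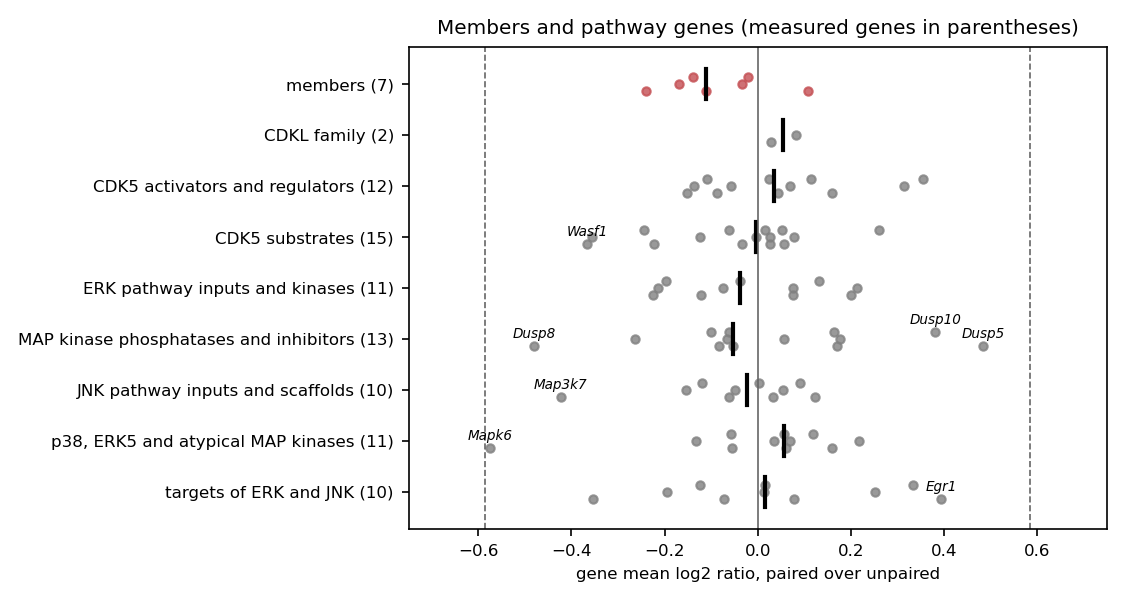
Mean log2 ratio, paired over unpaired, of each measured gene (points, x axis) in the members and in the 8 pathway lists (rows, with the number of measured genes); black bars are list medians and dashed lines mark 1.5-fold. Every list spreads over both sides of 0 except the CDKL family, which has 2 genes, and Mapk6, at -0.57, comes nearest to a dashed line.

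Some technical and cell type measures also differed between the pools. Control probe sets for Actb at the 3' and 5' ends were 0.53, 0.55 and 0.82 log2 units apart on the paired arrays of designs A, B and C, against 0.82, 0.59 and 1.02 on the unpaired arrays, and those for Gapdh 0.51, 0.46 and 0.39 against 0.58, 0.52 and 0.43. The gap was thus smaller in the paired pool on all 3 designs for both genes. For the marker counts that follow, 51.0% of all measured genes were lower in the paired pool, with a median log2 ratio of -0.0039. Of 7 measured granule cell markers 6 were higher, with a median log2 ratio of 0.35 and a log2 summed signal of 10.32 in the paired against 10.11 in the unpaired pool; Gabra6 had 0.89, Fat2 0.47, and Cbln3 was under the filter. Of 7 measured markers of deep nuclear projection neurons 2 were higher and 5 lower, with a median of -0.053 and a log2 summed signal of 12.37 in the paired against 12.45 in the unpaired pool. Both defining markers were bright: Slc17a6, the glutamate transporter of these neurons, lay at the 99.9, 85.3 and 81.5 percentiles on its 3 probe sets, the first with a suffix, and the neurofilament gene Nefh, also on the Cdk5 substrate list, at the 97.6 percentile. The transcription factor genes Lhx9 and Meis2 of the same list were under the filter, at the 19.4 percentile at best and the 29.8 percentile. Purkinje markers had a median of 0.095 with 6 of 8 higher (log2 summed signal 12.89 paired, 12.94 unpaired). The part of these differences in the values of the kinase genes was not tested.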

How the data were processed

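Total RNA from 1 pool per training group was labelled with biotin and hybridised to 3 array designs, 6 arrays in all. The deposited values are log2 signals per probe set. Base 2 was taken from their range of 1.40 to 12.53, and how the probes were summarized and normalized is not given in the sources used here. Of 36701 probe sets that are not controls, 29137 have 1 gene symbol in the platform annotation, 718 several and 6846 none. Symbols were updated by gene identifier with the RefSeq table of GRCm38.p6. No member probe set had several symbols.

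Each design was treated alone, except in the log2 summed signals of marker lists. Those add the deposited, uncentred signals of a list's measured probe sets over all 3 designs, so the brightest probe sets weigh most. Probe sets whose mean signal reached the design's median count as measured, 18351 in all. Their median log2 ratio before centring was -0.010, -0.0084 and -0.0067 on designs A, B and C, and it was subtracted from every ratio of the design. A gene's value is the mean over its measured probe sets, or over all where none was measured (Cdkl2). Only the centring and the log2 ratios were tested on simulated data, with 2-fold changes placed in measured probe sets. The annotation, gene means and lists were not tested in this way. Genes named beyond the members are the 3 with the largest absolute mean per pathway list, those with a measured probe set past 1.5-fold, and, per marker list, the defining genes and the 2 with the largest absolute mean. Cdk14, Cdk16, Cdk17, Cdk18, Lhx9 and Meis2 were named outside this rule. Members and lists were chosen with earlier results of these data known. Alternatives covered scaling, signal filter, floor, suffixes, designs, brightest probe set, several symbols and fold. Python 3.11.15, pandas 2.3.3 and numpy 2.4.6 were used.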

Additional observations from a re-analysis of the deposited data

How the results depend on the processing

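With 1 array per group, stability was judged against the SD of 0.19 of all measured log2 ratios. Gene means of the members moved by less than this in 77 of 79 comparisons with an alternative. That margin is wider than the mean of every member except Cdk5r1 (-0.24), and some alternatives leave a gene's probe sets unchanged. The count therefore says little about how stable a mean or its sign is. Cdk5r1 moved to -0.62 with the brightest probe set per gene and with signal at or above the 75th percentile, since both keep only 162928_f_at of its probe sets. The sign of a member's mean turned in 6 comparisons, 4 of them for Cdk5, 1 for Map2k1 (0.11 with no signal filter) and 1 for Mapk8 (0.014 on design A alone). Single member probe sets turned sign in 3 comparisons, Mapk10 100470_at under loess and quantile scaling (0.016 and 0.024) and Mapk9 108719_at without scaling (-0.00017). The median over member probe sets stayed under 0 in all settings tried, between -0.17 and -0.018. The 1 member probe set past 1.5-fold lies on design B, carries a suffix and is 1.54-fold lower. It was therefore bound to be absent on design A alone, on design C alone, without suffixed probe sets and at 2-fold (0 each). With the unpaired signal at least 25% above the paired one, 2 were lower. Of the pathway genes, 1 lay past 1.5-fold in each of 4 settings: Dusp8 with the brightest probe set, at or above the 75th percentile and on design B alone, and Map2 on design A alone. The median of phosphatases and inhibitors was 0.16 on design B alone, and medians of pathway lists turned sign in 27 of 87 comparisons. The probe set 162082_r_at of Map2k1 went to 0 with a floor at the 25th percentile, which it did not reach in either pool. At that floor 111146_at of Cdkl2 and 100391_at, 136576_r_at and 170626_i_at of Mapk8 also went to 0. No paired analysis was possible because each group has 1 array per design and the labels give no replicate numbers. Low signal limits Cdkl2 most, which no design measured above the filter.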

Other observations

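Markers of other cell types in the tissue gave the following values. Over all measured genes, 51.0% were lower in the paired pool and the median log2 ratio was -0.0039. Of 10 measured oligodendrocyte markers, 9 had a lower signal in the paired pool, and the median log2 ratio was -0.081. The lineage factor Sox10 had a mean of -0.27, from -0.53 to -0.015 over 3 probe sets. Gsn, an actin-severing protein gene, had -0.25, while the myelin gene Mbp had -0.084 on its measured probe set. For astrocytes and Bergmann glia this held for 7 of 10 genes, and the median was -0.095. The calcium-binding protein gene S100b had -0.33, Fabp7 -0.31 and the intermediate filament gene Gfap -0.27, and the water channel gene Aqp4 0.30. The Fabp7 value is the mean of -0.51 on a suffixed and -0.11 on another measured probe set, and a dim one gave 0.17.

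Microglial markers had a median of 0.051 over 6 genes, with the chemokine receptor gene Cx3cr1 at 0.29, C1qc at 0.16, Csf1r at 0.060 and C1qa at 0.042. Endothelial markers had -0.063 over 4 genes, with the tight junction gene Cldn5 at -0.37 and Pecam1 at 0.23. Choroid plexus markers had 0.11 over 3 genes, with the thyroid hormone carrier gene Ttr at -0.45 and Clic6 at 0.16, and Kl was under the signal filter. Blood cell markers had -0.098 over 3 genes, with Hbb-b2 at -0.44, Hba-a1 at -0.098 and Alas2, a haem synthesis gene, at 0.14. Among the projection neuron and Purkinje markers, Irx3 had -0.33, Nefh -0.24, Shisa6 0.48, Car8 0.42 and Pcp2 0.0080. Slc17a6 had a mean of 0.25, which rested on 0.85 on one probe set, beside -0.083 and -0.0025 on the others.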
